A study of Caenorhabditis elegans with 2 samples.

Results

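The 38 genes described here are the protein-coding genes of Caenorhabditis elegans named eef-, eif-, iff-, ife- or eft- in the Ensembl annotation of WBcel235, out of 19973 protein-coding genes on the nuclear chromosomes. No gene in that annotation carries an eft- name. The rule that defines them uses names and no measured value, but it was proposed with earlier results of these data known. Binding was read as peaks that touch the gene body, the 1000 bp upstream of it or the 500 bp downstream of it. This stretch is called the gene window below. Peaks came from chromatin immunoprecipitation and sequencing of ALY-2 fused at its C-terminus to a GFP-FLAG tag. All animals were whole L4 larvae, males and females pooled and age unknown, of the transgenic strain OP217, genotype unc-119(ed3) III; ddIs172. The study has 2 biological replicates of 1 group, so no conditions were compared, and separate cultures are not stated for them. The antibody is labelled only by the name of the protein. The promoter that drives the tagged gene is not given in the sources used here. Because whole animals were used, strong binding in few cells and weak binding in many cannot be told apart.

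Translation factors are soluble proteins that act on the ribosome in turn. Initiation factors bring the initiator tRNA, the mRNA cap and the small ribosomal subunit together, and elongation factors deliver the later tRNAs and move the ribosome along the message. ALY-2 is related to the Aly/REF proteins, nuclear adaptors that load onto newly made mRNA and help export it to the cytoplasm, where these factors work.

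Of the members, 4 had a peak in the optimal list, the peaks that passed the authors' optimal threshold of the irreproducible discovery rate, a measure of how well peak ranks repeat. They were eef-1A.1, eef-1A.2, eif-2Bgamma and iff-2, which is 10.5% of the members (exact Clopper-Pearson 95% interval 2.94 to 24.8, counting error over genes only), against 1.27% of all protein-coding genes. In the combined list, a permissive list called on the pooled alignments of both replicates, 22 members had a peak, which is 57.9% (95% interval 40.8 to 73.7), against 16.1% of all protein-coding genes. The authors label that list as peaks and background, the input to the irreproducible discovery rate. At members, its peaks outside the optimal list had a −log10 q from 0.018 at ife-1 to 1.30 at eef-2. They are candidate calls and not established binding. Without replicate 2, with as many of the strongest replicate 1 peaks in place of each pooled list, 2 members (eef-1A.1 and eef-1A.2) and 14 members had a peak, and without replicate 1 the counts were 5 and 18. The optimal list held 193 peaks, all of them also in the combined list of 3341. The permissive replicate lists held 17453 peaks in replicate 1 and 29384 in replicate 2. Read depth is unknown. Signal values below are the authors' own for each peak, on a scale that is not stated, so they rank peaks within a list and are not compared between lists. The lowest and the median signal were 7.10 and 8.88 in the replicate 1 list and 3.16 and 4.95 in the replicate 2 list. In the combined list they were 16.6 and 19.5. Many of the values below lie near these lowest or median values.

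The members' windows were close in length to those of other genes, with a median of 3652 bp against 3527 bp. Among the 18 members with a window between the members' own quartiles of length, a range chosen after the values were seen (2978.5 to 4311.5 bp), 4 had an optimal peak, against 0.852% of the genes of that length, and 10 had a combined peak, against 12.9%. Each share was above its background in this range too. These shares have no test.

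**Figure D1:**
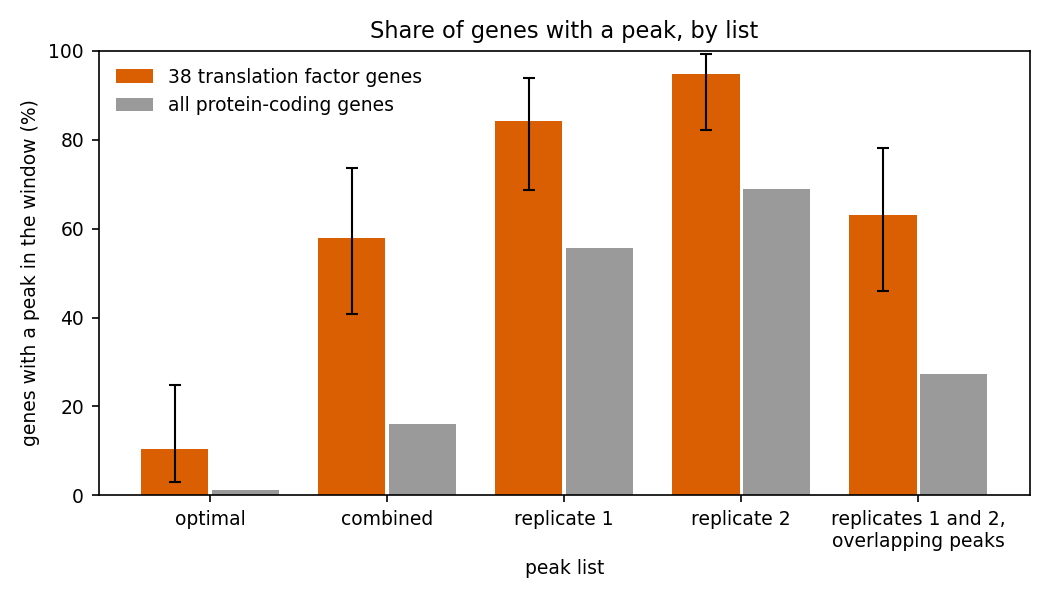
Share of the 38 members (orange, left) and of all 19973 protein-coding genes (grey, right) with a peak in the gene window, in percent, for the optimal list, the combined list, each replicate list, and peaks of both replicates that overlap each other. Bars on the members are exact 95% intervals for counting error over genes, and the members lie above the background in all 5 pairs.

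The highest signal among the members was at an eEF1A gene in each replicate list. eEF1A binds aminoacyl-tRNAs and carries them to the ribosome, and the worm has a pair of genes for it, eef-1A.1 on chromosome III (6970026 to 6971712, minus strand) and eef-1A.2 on X (7823654 to 7825769, plus strand). The optimal peak of eef-1A.1 had a signal of 40.9, rank 67 of 193, with its summit in the last part of the coding sequence, 348 bp before the gene end. The replicate peaks touching it reached 28.9 in replicate 1, rank 11 of that list, and 19.8 in replicate 2, rank 241, whose own summit lay in the 3' UTR. A further replicate 2 peak of 15.0, rank 631, had its summit within 1 bp of the optimal one. A replicate 2 peak of 21.4 lay near the gene start, where the pooled list had a peak of 23.5 and replicate 1 had no peak. The optimal peak of eef-1A.2 had a signal of 52.0, rank 21, with its summit 68 bp past the gene end. It reached 18.6 in replicate 1, rank 150, and 34.9 in replicate 2, rank 25. Both eEF1A genes were thus high in both replicates, the first at its distal coding sequence and the second beyond its annotated end.

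The coding sequences of this gene pair matched at 1305 of 1389 aligned bases, 94.0%, with a longest identical run of 53 bases. To show how alike they are under the optimal peak of eef-1A.1, its summit exon stretch is given with the aligned stretch of eef-1A.2, read from the RefSeq genome of WBcel235 on the coding strand (chrIII:6970324-6970396, minus strand, and chrX:7825010-7825082, plus strand). Capitals mark the 4 of 73 bases that differ.
eef-1A.1: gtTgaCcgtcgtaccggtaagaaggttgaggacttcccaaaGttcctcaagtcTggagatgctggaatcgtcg
eef-1A.2: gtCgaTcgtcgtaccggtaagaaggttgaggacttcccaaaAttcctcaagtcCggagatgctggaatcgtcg
No peak of any of the 4 lists touched the eef-1A.2 stretch. Of the 335 stretches of 36 bases within the eef-1A.1 peak, 42 (12.5%) occur elsewhere in the genome. Their part in the signal was not tested.

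The summit beyond eef-1A.2 lay in a separate annotated gene, C54D2.14, a noncoding RNA gene on the same strand whose start is 57 bp before the summit. The stretch from the end of eef-1A.2 to the end of the peak (chrX:7825770-7826021, plus strand) is shown because the strongest peak among the members falls there, with the bases of C54D2.14 in capitals.
eef-1A.2 downstream: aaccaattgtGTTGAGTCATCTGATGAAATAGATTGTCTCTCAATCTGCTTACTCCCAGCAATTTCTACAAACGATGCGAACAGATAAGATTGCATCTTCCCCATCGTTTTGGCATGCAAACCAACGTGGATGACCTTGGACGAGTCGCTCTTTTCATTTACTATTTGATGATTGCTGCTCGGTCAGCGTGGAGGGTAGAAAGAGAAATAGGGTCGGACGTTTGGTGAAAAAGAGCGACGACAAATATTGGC
None of the 335 stretches of 36 bases in this peak occurs elsewhere in the genome. The peak overlaps both eef-1A.2 and C54D2.14, so the 2 genes cannot be told apart as its target.

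The other elongation factor genes had peaks in the permissive lists only. At eef-2, whose protein moves the ribosome by a codon, the combined list had a peak of 29.7 in the 3' UTR, 173 bp before the gene end, and a peak of 19.5 in the 5' UTR. The first reached 27.9 in replicate 2, rank 57, and was touched in replicate 1 by a peak of 8.02, rank 12347, with its own summit in the coding sequence, while the second had no peak in replicate 1 and 12.4 in replicate 2. The 3' UTR peak of eef-2 was therefore near the top of the replicate 2 list, with a weak partner in replicate 1. At eef-1G, which encodes the gamma subunit of the complex that recharges eEF1A with GTP, the combined list had 4 peaks, of 17.3, 22.3, 20.4 and 18.7. The one at the gene start, 22.3, was found in both replicates (8.93, rank 8560, in replicate 1 and 8.70, rank 3644, in replicate 2). The replicate 1 value is close to the median of its list. The other 3 had replicate 2 peaks only. The summit of the 17.3 peak lay in a coding exon of ctf-4, on the opposite strand. The snoRNA gene F17C11.15 had the nearest start to the 20.4 and 18.7 summits. At eef-1B.1, a gene of the same exchange complex, a combined peak of 17.4 in a coding exon had a replicate 2 peak of 8.79 and none in replicate 1. Its relative eef-1B.2 had no combined peak, although replicate 2 reached 18.2 (rank 332) 72 bp past the gene end and replicate 1 had 11.3 there, 276 bp past the end.

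**Figure D2:**
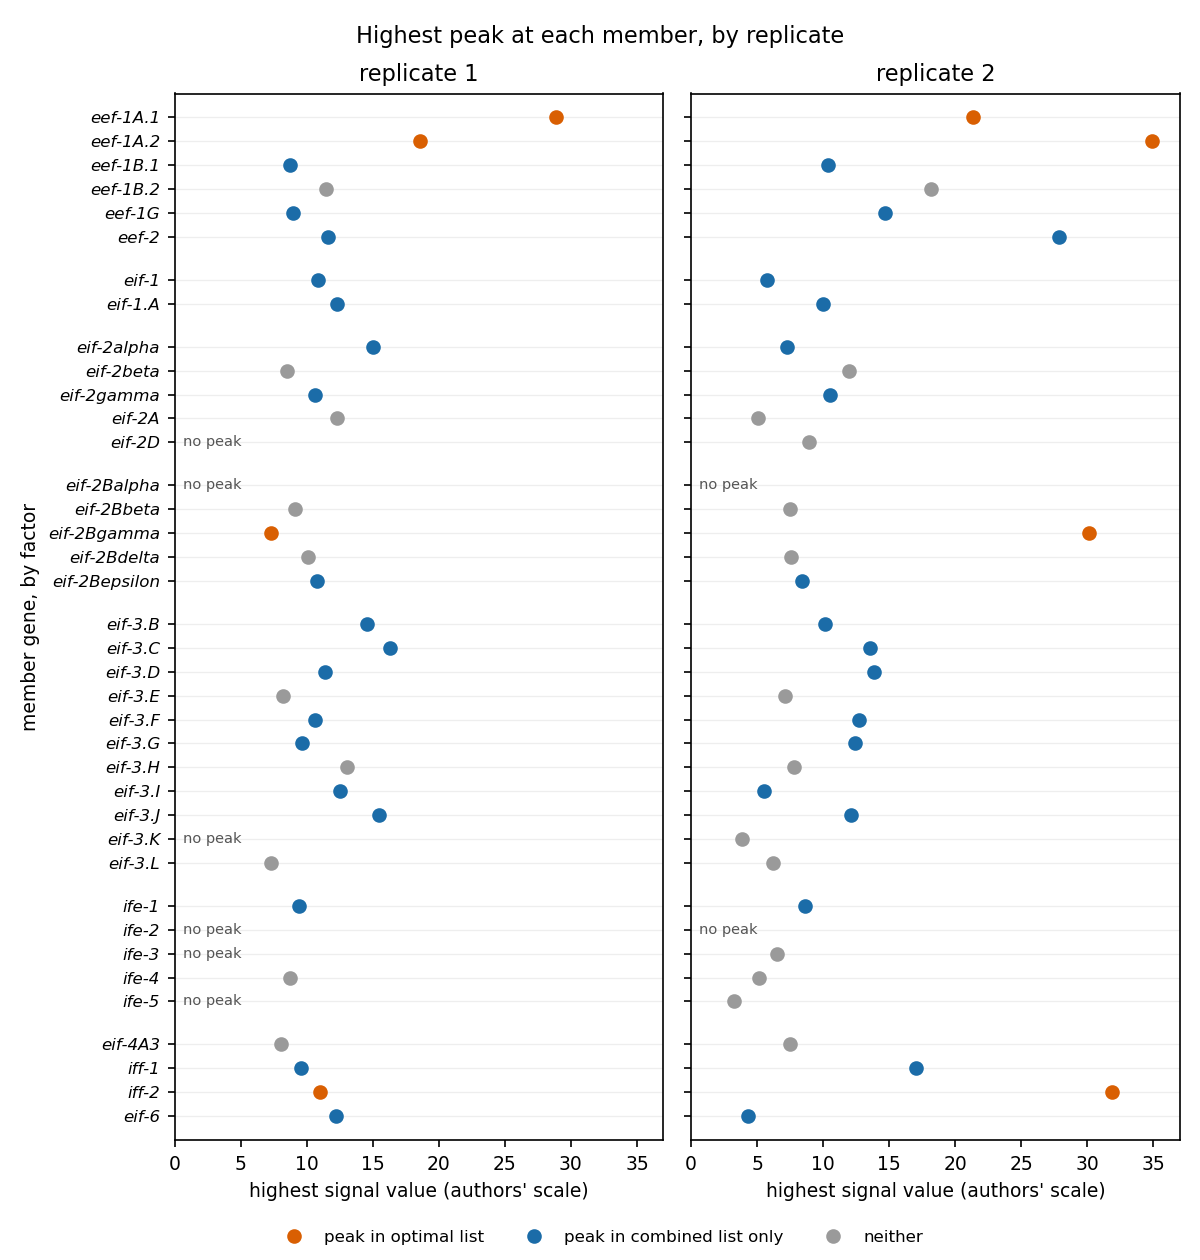
Highest signal value of any peak in each member's window, in replicate 1 (left) and replicate 2 (right), with members grouped by factor down the page and "no peak" where the list has none. Orange members have a peak in the optimal list, blue ones in the combined list only, and grey ones in neither; eif-2Bgamma is at 7.31 in replicate 1 and 30.1 in replicate 2. For iff-2 the replicate 1 point is a peak past the gene end, away from its optimal peak.

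The remaining optimal peaks stood at genes where the replicates differed. eIF2B is the exchange factor that reloads eIF2 with GTP and is the step held back when eIF2 is phosphorylated, and eif-2Bgamma encodes 1 of its 5 subunits (II, 6965800 to 6967648, minus strand). Its optimal peak had a signal of 37.6, rank 96, with the summit 776 bp upstream of the gene start. The strongest overlapping peak was 7.31 in replicate 1, rank 16237 of 17453, and 30.1 in replicate 2, rank 36 of 29384. The peak was among the strongest of replicate 2 and among the weakest of replicate 1. It also lay over other genes. The summit was in an intron of the next gene upstream, C15F1.5, within sup-39, a U1 small nuclear RNA gene whose product pairs with 5' splice sites, and the nearest start was that of the noncoding gene C15F1.14, 32 bp away on the other strand. mir-1831 and the piRNA gene 21ur-14704 lay in reach as well. The 300 bases about the summit (chrII:6968274-6968573, minus strand) are shown because the summit falls in a gene that is no translation factor, with the 165 bases of sup-39 in capitals.
eif-2Bgamma upstream: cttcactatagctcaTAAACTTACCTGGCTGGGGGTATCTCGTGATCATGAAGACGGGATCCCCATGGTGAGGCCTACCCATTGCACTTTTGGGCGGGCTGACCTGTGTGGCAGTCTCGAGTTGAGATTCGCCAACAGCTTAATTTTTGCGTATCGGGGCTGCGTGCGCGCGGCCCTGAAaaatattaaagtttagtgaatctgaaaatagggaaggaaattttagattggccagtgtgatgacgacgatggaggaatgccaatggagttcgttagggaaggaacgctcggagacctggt
Of the 335 stretches of 36 bases in this peak, 93 (27.8%) occur elsewhere in the genome, and all 93 touch sup-39.

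iff-2 encodes eIF5A, a small factor that helps the ribosome past sequences it joins slowly and carries the modified residue hypusine (II, 8559375 to 8561367, minus strand). Its optimal peak had a signal of 33.9, rank 159 of 193, and a −log10 q of 2.02. The other 3 members in that list had 2.48, which is the highest value the list holds. The summit lay 48 bp upstream of the gene start, which was also the nearest start of any gene. No replicate 1 peak touched it, and the replicate 2 peak was 31.8, rank 32. Replicate 1 is part of the pooled lists, but its read coverage here was not examined. Among called peaks, the optimal peak of iff-2 therefore matched one of replicate 2 alone. Of the 4 optimal peaks, this one lies just upstream of a member with that member's own start as the nearest, and its sequence from the peak edge to the gene start (chrII:8561368-8561599, minus strand) is shown with the summit and the 10 bases on each side in capitals.
iff-2 upstream: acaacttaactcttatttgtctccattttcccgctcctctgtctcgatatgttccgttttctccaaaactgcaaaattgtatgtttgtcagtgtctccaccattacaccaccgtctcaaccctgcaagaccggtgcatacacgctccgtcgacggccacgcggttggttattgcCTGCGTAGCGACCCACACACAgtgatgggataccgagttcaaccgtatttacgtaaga
None of the stretches of 36 bases in this peak occurs elsewhere. GC content of the peak was 42.7%, within the 30.0% to 53.0% of the members' combined peaks, whose median of 37.8% was close to the 38.9% of all combined peaks. The relative iff-1, whose coding sequence matched that of iff-2 at 65.0% of aligned bases, had a combined peak of 20.2 in a coding exon, with 9.03 in replicate 1 and 17.0 in replicate 2.

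**Figure D3:**
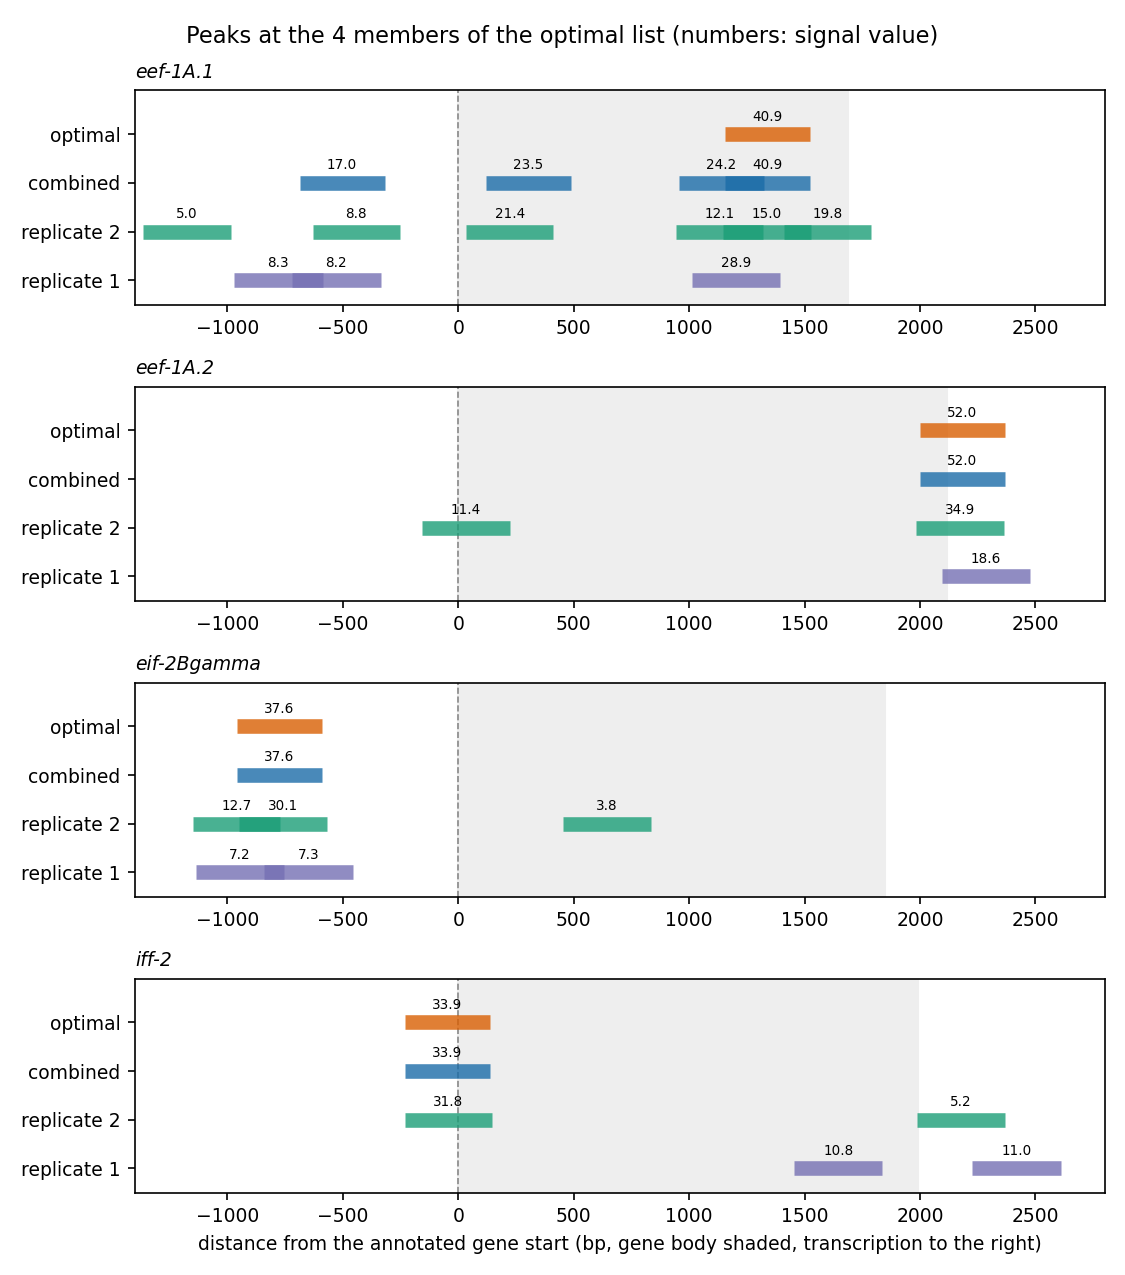
Peaks at the 4 members of the optimal list, as horizontal bars, by distance from the annotated gene start in bp, with the gene body shaded, transcription to the right and the signal value above each bar. At eef-1A.1 and eef-1A.2 both replicates have strong peaks under the optimal peak, while at eif-2Bgamma replicate 1 has 7.31 at most and at iff-2 it has no peak there.

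eIF3 is the largest initiation factor, a scaffold of many subunits on the small ribosomal subunit, and 7 of its 11 named genes had a combined peak, against 16.1% of all protein-coding genes. None had an optimal peak, against 1.27%, a background too low for an absence among 11 genes to be read as a result. The strongest was at eif-3.D, 28.8, with 11.3 in replicate 1 and 13.9 in replicate 2, and its summit lay 77 bp past the gene end. That summit was in a coding exon of rpap-2, a gene on the opposite strand. A weaker one at the start of the same gene was 16.8, with 9.20 in replicate 1 and 7.004 in replicate 2. Next came eif-3.C with a coding-exon peak of 26.6, which had 16.3 in replicate 1 and 13.1 in replicate 2, and a peak of 22.7 past the end, which had 10.2 in replicate 1 and 13.6 in replicate 2. Both eif-3.C peaks were thus found in each replicate. eif-3.J had 19.5 (15.5 in replicate 1, 12.2 in replicate 2) 976 bp upstream, where the gene slc-25A46 ends. eif-3.B had 18.1 past its end (14.5 in replicate 1, 10.1 in replicate 2). The replicate 1 peak there had its own summit in the 3' UTR, 92 bp before the gene end. eif-3.F had 20.0 past its end (no peak in replicate 1, 12.7 in replicate 2). eif-3.G had 17.9 upstream (9.62 in replicate 1, 12.4 in replicate 2) and 18.8 in a coding exon (8.45 in replicate 1, no peak in replicate 2). eif-3.I had 19.1 upstream (10.2 in replicate 1, no peak in replicate 2) and 18.6 downstream (12.5 in replicate 1, 5.37 in replicate 2). The downstream summit lay in a coding exon of ddx-10. The other genes of the complex, eif-3.E, eif-3.H, eif-3.K and eif-3.L, had peaks in replicate lists only, up to 13.04 in replicate 1 at eif-3.H and 7.77 in replicate 2, also at eif-3.H.

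Some combined summits lay just beyond a member's end. In 7 members a combined summit lay up to 200 bp past the end, which is 18.4% (95% interval 7.74 to 34.3), against 2.11% of all protein-coding genes. They were eef-1A.2 (68 bp), eif-3.D (77 bp), eif-6 (90 bp), eif-3.C (99 bp), eif-3.B (100 bp), eif-3.F (103 bp) and eif-2Bepsilon (177 bp). In 5 of the 7 the next protein-coding gene lay on the same strand within 300 bp of the end or overlapped it, namely T23D8.3 after eif-3.C, tbc-20 after eif-3.B, scp-1 after eif-3.F, gale-1 after eif-6 and etc-1 after eif-2Bepsilon. These 5 peaks touch the start regions of those genes as well. The eif-3.D summit lay in a coding exon of rpap-2, which overlaps the end of eif-3.D on the opposite strand. Summits within 200 bp of a member's own start occurred in 6, eef-1G, eef-2, eif-1.A, eif-2gamma, eif-3.D and iff-2, which is 15.8% (95% interval 6.02 to 31.3), against 2.28% of all protein-coding genes. Both distances were chosen after the values were seen. Members also had a combined peak anywhere in the window more often (57.9% against 16.1%). Neither share was computed among genes with a combined peak only, so neither is read as a preferred position. Summits just past the end were also found at other translation genes, such as aars-2 (110 bp), erfa-1 (21 bp) and nars-1 (61 bp). Over all 33 combined peaks in the members' windows, 14 summits lay upstream of the member's longest coding transcript, 9 in coding exons, 8 downstream, 1 in a 5' UTR, 1 in a 3' UTR and 0 in introns. Another gene's body or upstream 1000 bp was touched by 29 of the 33, and for 14 the member had the nearest start. This split of the 33 summits by position and their neighbours were not counted for all protein-coding genes, so they are not read as traits of the members.

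**Figure D4:**
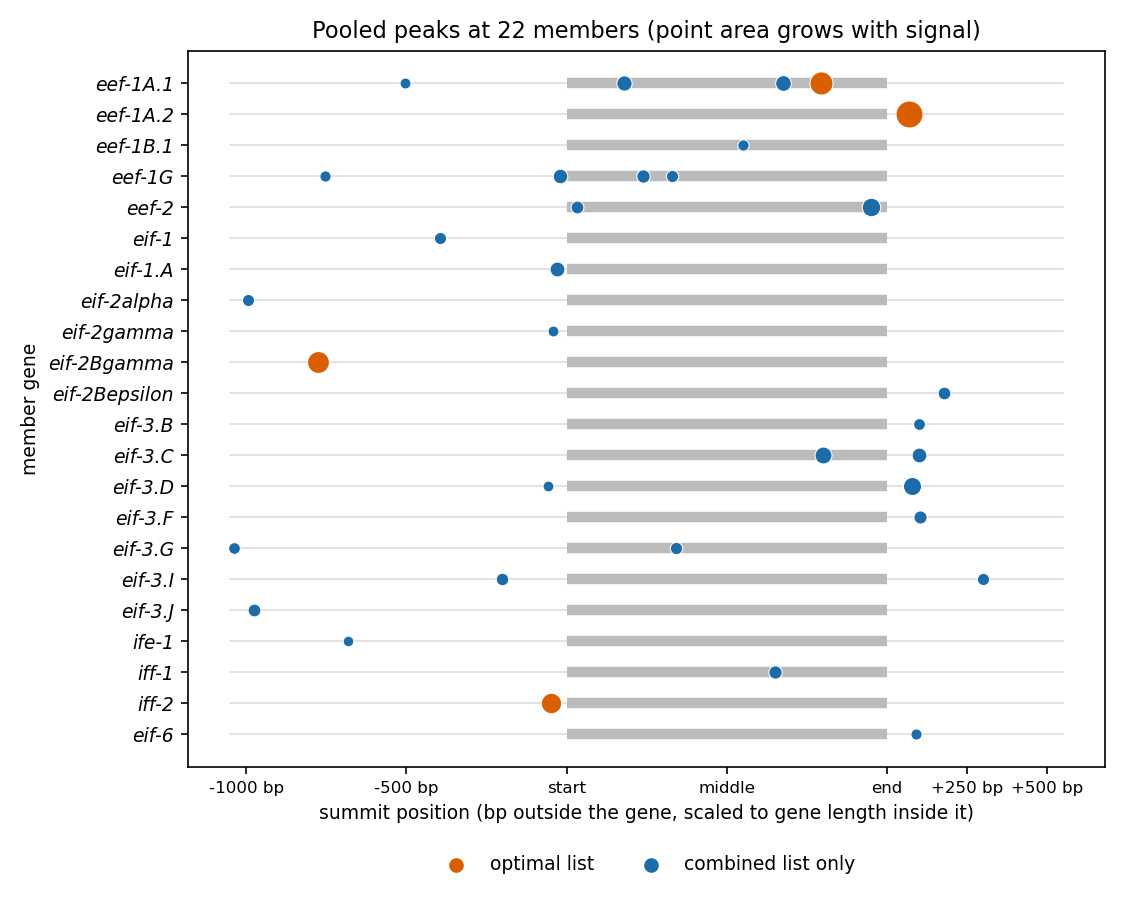
Summits of the combined peaks at the 22 members that have one, by position relative to the gene (bp upstream of the start and downstream of the end, scaled to gene length in between). Orange points are in the optimal list and blue ones in the combined list only, with a larger area for a larger signal; 7 members have a summit up to 200 bp past the gene end.

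Both genes of eIF1 and eIF1A had a combined peak, and 2 of the 5 eIF2 and eIF2-like genes did, against 16.1% of all protein-coding genes. eif-1.A, for a factor that helps the scanning ribosome hold the start codon, had 22.8 at its start, 31 bp upstream, with 12.3 in replicate 1 and 9.999 in replicate 2. eif-1, for its partner in start codon choice, had 18.6 at 395 bp upstream, with 10.9 in replicate 1 and no peak in replicate 2, and vps-24 had the nearer start. eIF2 carries the initiator tRNA to the ribosome. Of its 3 subunit genes, eif-2gamma had 16.9 at its start, with no replicate 1 peak and 6.95 in replicate 2, and eif-2alpha had 18.5 at 995 bp upstream, inside phb-1, with 15.0 in replicate 1 and 4.61 in replicate 2. eif-2beta had no combined peak and had 8.53 in replicate 1 and 11.9 in replicate 2 at most. Among the eIF2B genes, eif-2Bepsilon had 19.4 past its end, with no replicate 1 peak and 8.42 in replicate 2. eif-6, for a factor that keeps large ribosomal subunits apart from small ones, had 17.2 past its end, with 12.2 in replicate 1 and 3.58 in replicate 2.

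Of the 5 eIF4E genes, ife-1 to ife-5, which encode proteins that hold the 5' cap of the mRNA, 1 had a combined peak, against 16.1% of all protein-coding genes. It was ife-1, with 16.6 at 682 bp upstream (8.499 in replicate 1, 6.40 in replicate 2), and dro-1 had the nearer start. The strongest replicate peaks elsewhere in the family were 8.76 in replicate 1 at ife-4 and 6.52 in replicate 2 at ife-3. ife-2 had no peak in any of the 4 lists, and neither did eif-2Balpha, a regulatory subunit gene of eIF2B. A further 4 members, eif-2D, eif-3.K, ife-3 and ife-5, had peaks in replicate 2 alone, from 3.27 at ife-5 to 8.91 at eif-2D. Of all protein-coding genes, 55.6% had a replicate 1 peak, 69.0% a replicate 2 peak and 44.4% both. Peaks in replicate 2 alone or in no list thus occur among other genes too, and neither count is read as a result about the members. eif-4A3, which encodes the helicase at the core of the exon junction complex, had 8.03 in replicate 1 and 7.53 in replicate 2 and no combined peak.

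Over the replicate lists, 32 members (84.2%) had a peak in replicate 1, against 55.6% of all protein-coding genes, and 36 (94.7%) in replicate 2, against 69.0%. All 32 were shared by both lists, against 44.4% of all protein-coding genes with a peak in both. In 24 members (63.2%, 95% interval 46.0 to 78.2) a replicate 1 peak and a replicate 2 peak overlapped each other, against 27.2%. All 6 elongation factor genes and 9 of the 11 eIF3 genes were among them, and 1 of the 5 eIF2B genes was. At iff-2 the overlapping replicate peaks lay past the gene end, away from its optimal peak. At eef-1B.1 they lay upstream, away from its combined peak in a coding exon. They were weak there, 7.52 in replicate 1, rank 15007, and 5.81 in replicate 2, rank 10490. Peaks among the strongest 10% of a list by signal were also counted, a limit chosen after the values were seen. In replicate 1, 7 of the 38 members had one, against 9.29% of all protein-coding genes. In replicate 2, 18 of the 38 members had one, against 14.0%. In both lists, 5 of the 38 members had one, against 3.83% of all protein-coding genes. They were eef-1A.1, eef-1A.2, eif-3.B, eif-3.C and eif-3.J. Of the 33 combined peaks at members, 20 (60.6%) overlapped a peak of each replicate, 3 one of replicate 1 only and 10 one of replicate 2 only, while among all combined peaks 72.0% overlapped a peak of each. Since the combined list comes from the same reads, such overlap is not independent support.

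Of 26 further genes of translation and its control, 14 (53.8%) had a combined peak, against 16.1% of all protein-coding genes. An optimal peak was found at 1 of them (3.85%, against 1.27%), ifet-1, which encodes an eIF4E-binding protein (38.6, 447 bp past the gene end). Within that list, ifg-1, the eIF4G gene, had a combined peak of 31.4, pab-1, for the poly(A)-binding protein, one of 19.8, erfa-3, a release factor gene, one of 25.4, and tufm-1, for the mitochondrial elongation factor Tu, one of 30.0. Of 32 aminoacyl-tRNA synthetase genes, whose enzymes load tRNAs, 17 (53.1%) had a combined peak, against the same 16.1% of all protein-coding genes. Optimal peaks lay at 2 of them (6.25%, against 1.27%), ears-2 (37.7, 39 bp upstream) and tars-1 (37.4, 163 bp past the gene end). The differences between these lists and the members, with 57.9% in the combined and 10.5% in the optimal list, were not tested. Window length was not checked for these lists, and some of their genes are long. A combined summit of gcn-1 lay 20344 bp from the gene start.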

How the data were processed

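Per the file descriptions, the authors' deposited lists are narrowPeak files in ce10 and ce11, derived from alignments and a control; which caller and aligner made them is not stated there. The signal column holds the authors' signal value per peak, and another deposited column its q-value as −log10. The permissive ce10 lists were not used, and no coordinate was converted. The replicate lists come from 1 library each, and the combined and optimal lists pool both.

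Peaks of the ce11 lists were set against Ensembl release 115 (WBcel235, the same assembly), by an overlap of at least 1 bp with the gene window, and coordinates are 1-based. Positions refer to the longest coding transcript. Coding sequences were aligned globally with Biopython 1.88. The members' naming rule and the lists were proposed with earlier results of these data known, and 4 names of the further list had no match. Named were members with a pooled peak and those highest in a replicate or without a peak. Of the neighbours whose body or upstream 1000 bp a peak touched, only some were named. A peak given without a neighbour may still touch one. No p-values were computed. The counting code was tested on simulated peaks planted at known genes, which is no test of the reported counts. Software was Python 3.11.15, numpy 2.4.6 and scipy 1.17.1, with figures by matplotlib 3.10.9.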

Additional observations from a re-analysis of the deposited data

How the results depend on the processing

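No paired analysis was possible because both samples share a group. The files give no read depth. Of 26 alternative values, 16 lay within 1.5 times the main count, and the members' share was above that of all protein-coding genes in each of the 25 for which a share was computed. Taking as many strongest peaks from a single replicate list gave 2 to 5 members in place of the 4 with an optimal peak, and 14 to 18 in place of the 22 with a combined one. Without replicate 2 those 2 were eef-1A.1 and eef-1A.2. Only peaks at or above the median signal left 12 members with a combined peak and 15 of the 24 with overlapping replicate peaks. In the gene body alone, 21 of 32 members had peaks in both replicates and 13 had overlapping ones. With each replicate list held to the length of the combined list these were 9 and 8. Summits within 100 bp left 12. The comparison within the members' middle window lengths, chosen after seeing the data, had 10 of 18 with a combined peak and 4 of 18 with an optimal one. The tally set these raw counts against counts over 38 members. By share they were 55.6% against 57.9% for the combined list and 22.2% against 10.5% for the optimal list. Fewer peaks or a smaller window leave fewer members by construction.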
